A study of Mus musculus with 4 samples.

Results

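The transcripts described here encode 33 lysosomal proteins: membrane proteins of the organelle, its proteases, the enzymes that take apart glycans, and its lipid enzymes with their cofactors. They were taken as a named list, and a gene was measured through the probe sets of the array annotated to its symbol and no other. That left 32 of the 33, among the 12393 genes measured in this way. Cd63, the remaining gene, was not analysed here. Each gene was represented by its probe set of highest mean signal, and all 32 passed the filter on dim probe sets.

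Expression was compared between 2 groups of subcutaneous tumors, raised in nude (NCR Nu/Nu) mice from immortalized baby mouse kidney epithelial (iBMK) cells. The cells of both groups were Atg5-/- and carried Bcl-2. In 1 group (2 tumors) they expressed p62-EGFP, the autophagy adaptor p62 fused to a green fluorescent protein, and in the other (2 tumors) they expressed EGFP alone. The design text calls the lines isogenic, but the labels give no age of the mice and do not tie the tumors to separate animals or cultures. The p-values below measure only the spread between these tumors, which may be technical. Athymic nude mice lack most T cells and keep macrophages, NK cells and mast cells, and RNA came from whole tumors, host cells included. In such bulk RNA, fewer cells of a type and less RNA per cell cannot be told apart.

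Lysosomes are acidic compartments in which hydrolases break down proteins, glycans and lipids that arrive from endocytosis and autophagy. Atg5 is needed to form the autophagosome, the vesicle that carries p62 and its cargo to the lysosome. Without Atg5 that route is closed, and endocytic delivery and the sorting of new enzymes through the mannose 6-phosphate receptor go on. Macrophages are among the cells richest in lysosomes. Many lysosomal genes carry E-boxes, short palindromes near the gene start, to which TFEB and its relatives TFE3 and MITF bind when they enter the nucleus.

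The sequences of 4 promoters show the E-boxes in genes that stood on different sides of the comparison. Lamp1 and Mcoln1 stood lower in the p62-EGFP tumors, Gaa stood higher by its brighter probe set, and Ctsd showed no common direction. Each line gives the 150 bases before the gene start in the RefSeq promoter table of build GRCm38.p6, 5′ to 3′ on the strand of the gene, with the E-box CACGTG in capitals. The windows are chr8:13159011-13159160 for Lamp1 and chr8:3500369-3500518 for Mcoln1 (both plus strand). They are chr11:119267813-119267962 for Gaa (plus strand) and chr7:142387828-142387977 for Ctsd (minus strand).
Lamp1: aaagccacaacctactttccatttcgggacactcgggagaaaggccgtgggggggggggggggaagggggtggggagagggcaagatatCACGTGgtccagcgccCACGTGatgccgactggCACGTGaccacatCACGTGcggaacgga
Mcoln1: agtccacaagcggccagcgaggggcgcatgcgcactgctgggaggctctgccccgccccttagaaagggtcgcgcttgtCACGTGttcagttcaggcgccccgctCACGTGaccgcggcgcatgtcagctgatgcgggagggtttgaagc
Gaa: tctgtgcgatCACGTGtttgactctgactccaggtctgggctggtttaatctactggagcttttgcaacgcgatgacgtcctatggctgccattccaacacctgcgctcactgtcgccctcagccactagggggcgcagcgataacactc
Ctsd: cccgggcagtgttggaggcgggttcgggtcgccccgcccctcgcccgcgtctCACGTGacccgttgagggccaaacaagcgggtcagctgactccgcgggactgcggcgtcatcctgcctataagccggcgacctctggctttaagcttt
Lamp1 held 4 E-boxes in this stretch, Mcoln1 held 2, Gaa held 1 and Ctsd held 1. Ctsd had another at position -245 from the gene start, outside the stretch shown.

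The search covered both strands by its construction, since CACGTG reads the same on each, and ran over windows of 300 bases, from 250 before the start to 50 after it. Of the members, 28 were in the promoter table, with 30 windows. An E-box was present in 30% of these windows and in 7.15% of all 32851 windows of the table; among windows of the tested genes the share was 10.2%. The longer form TCACGTGA, which contains the E-box, was in 13.3% of the member windows and in 0.974% of all windows. Among windows of the tested genes its share was 1.93%. The 9 members with an E-box were Lamp1, Mcoln1, Ctsa, Ctsd, Ctsl, Gaa, Gla, Glb1 and Naglu. They did not share a direction: 3 of the 9 lay lower in both p62-EGFP tumors, a position held by 22.1% of all tested genes, 2 lay higher, against 26.4%, and 4 overlapped, with a median log2 difference of -0.19. The 19 members without an E-box in the window had a median of -0.30, with 9 lower, 1 higher and 9 overlapping. A match describes these letters in these windows, not binding.

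**Figure D1:**
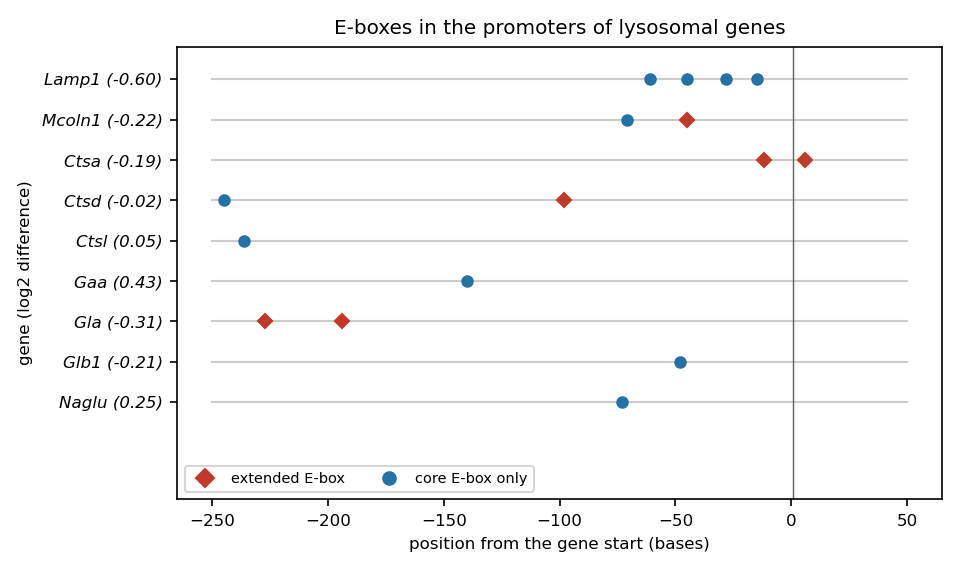
Position of each E-box from the gene start, in bases, in the 9 lysosomal genes that held one, with the log2 difference between p62-EGFP and EGFP tumors beside the gene name. Diamonds are the longer TCACGTGA form and circles the core alone; the 4 matches of Lamp1 sit between 61 and 15 bases before the start.

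The arrays were alike in overall brightness, with median signals of 57.7 and 59.9 in the p62-EGFP tumors and 60.8 and 60.9 in the EGFP tumors. Sqstm1, the gene for p62, read 1433 and 1688 in p62-EGFP tumors, against 976 and 1156 in EGFP tumors, and whether its probe set detects the transgene is not known. Atg5 read 91.3 and 93.9 against 119 and 103, from a probe set whose place relative to the deletion is unknown. Bcl2 read 5.6 and 2.4 against 5.4 and 15.2, too dim to be tested. The epithelial marker Krt18 was present in every tumor, at 545 and 627 against 730 and 254, and Epcam read 361 and 660 against 351 and 109. Krt7 and Pax8 stayed under 12 in all 4 tumors. EGFP tumor 2 stood apart from the other 3 tumors in its leukocyte transcripts, as did p62-EGFP tumor 1 in skeletal muscle transcripts.

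Macrophage markers and NK and T cell markers both showed the difference in leukocyte transcripts. Signals of the macrophage markers summed over 16 genes to 2815 and 2886 in the p62-EGFP tumors and to 1606 and 12745 in EGFP tumors 1 and 2. All 14 tested macrophage markers were highest in EGFP tumor 2, 12 of them were lowest in EGFP tumor 1, and none was at 0 on all arrays. Of the 2 too dim to be tested, Itgam was also highest in EGFP tumor 2 and Cd163 was not. C1qa, a complement subunit made by macrophages, read 427 and 410 against 249 and 1765, and Lyz2, lysozyme of myeloid cells, 644 and 686 against 314 and 1455. NK and T cell markers summed over 9 genes to 77.0 and 85.3 in p62-EGFP tumors and to 80.5 and 3295 in EGFP tumors. The median ratio of EGFP tumor 2 to EGFP tumor 1 was 37.4 for the tested NK and T cell markers and 8.33 for the tested macrophage markers. Fibroblast markers summed over 8 genes to 2103 and 2873 against 996 and 3471. The sums of mast cell and endothelial markers moved with the groups instead. Mast cell markers summed over 7 genes to 185 and 122 in p62-EGFP tumors and to 690 and 510 in EGFP tumors. Endothelial markers summed over 8 genes to 202 and 257 against 412 and 533. The groups overlapped for the mast cell marker Kit (97.3 and 73.3 against 55.6 and 74.3) and the endothelial marker Tek (32.2 and 36.4 against 25.1 and 39.2). They also overlapped for the dim mast cell marker Ms4a2 (6.5 and 2 against 6.3 and 4.3). Skeletal muscle markers summed to 3960 and 48.9 against 40.1 and 707, adipocyte markers to 261 and 813 against 725 and 1317, and epithelial markers to 1470 and 2144 against 1494 and 707. Most of the adipocyte sum was Fabp4, at 220 and 691 against 699 and 1304. Adipoq (11.3 and 63.7 against 5.5 and 8.8), Cidec and Retn, too dim to be tested, were higher in both p62-EGFP tumors. Results below are therefore given for each EGFP tumor as well.

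No lysosomal gene passed the test between the groups. By limma with Benjamini-Hochberg adjustment over 13576 probe sets, 0 of the 32 had an adjusted p below 0.05, where 0.051% of all tested genes and 0.0884% of the probe sets did (0.0589% higher and 0.0295% lower). At an unadjusted p below 0.05, 3 of the 32 were lower (Lamp1, Asah1 and Ppt1), against 6.3% of all tested genes, and 0 were higher, against 8.5%. For 14 members the p62-EGFP pair lay wholly below the EGFP pair, against 22.1% of all tested genes, and for 3 (Tpp1, Gaa and Naglu) wholly above it, against 26.4%. The groups overlapped for the other 15. The median log2 difference over the 32 was -0.30, beside 0.01 over all 7846 tested genes. An exact permutation test of a single gene cannot go below p = 0.33 with 2 tumors against 2.

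Most of the list's shift came with EGFP tumor 2. The median deviation of the 32 genes from their own 4-tumor means was -0.13 and -0.16 on the log2 scale in the p62-EGFP tumors, -0.12 in EGFP tumor 1 and 0.52 in EGFP tumor 2. EGFP tumor 2 was the highest of the 4 for 25 of the 32 members, against 24.6% of all genes, and exceeded EGFP tumor 1 over 2-fold for 11, against 5.86% of genes. EGFP tumor 1 was the lowest for 13 members, against 22.4% of genes. Against EGFP tumor 2 alone, both p62-EGFP tumors were lower for 27 members (35.4% of all genes) and higher for 4 (48.3%). Against EGFP tumor 1 alone they were lower for 15 (42.9% of all genes) and higher for 15 (38.2%), so this split was near that of the genes at large. Without EGFP tumor 2 the median of the members was 0.03.

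**Figure D2:**
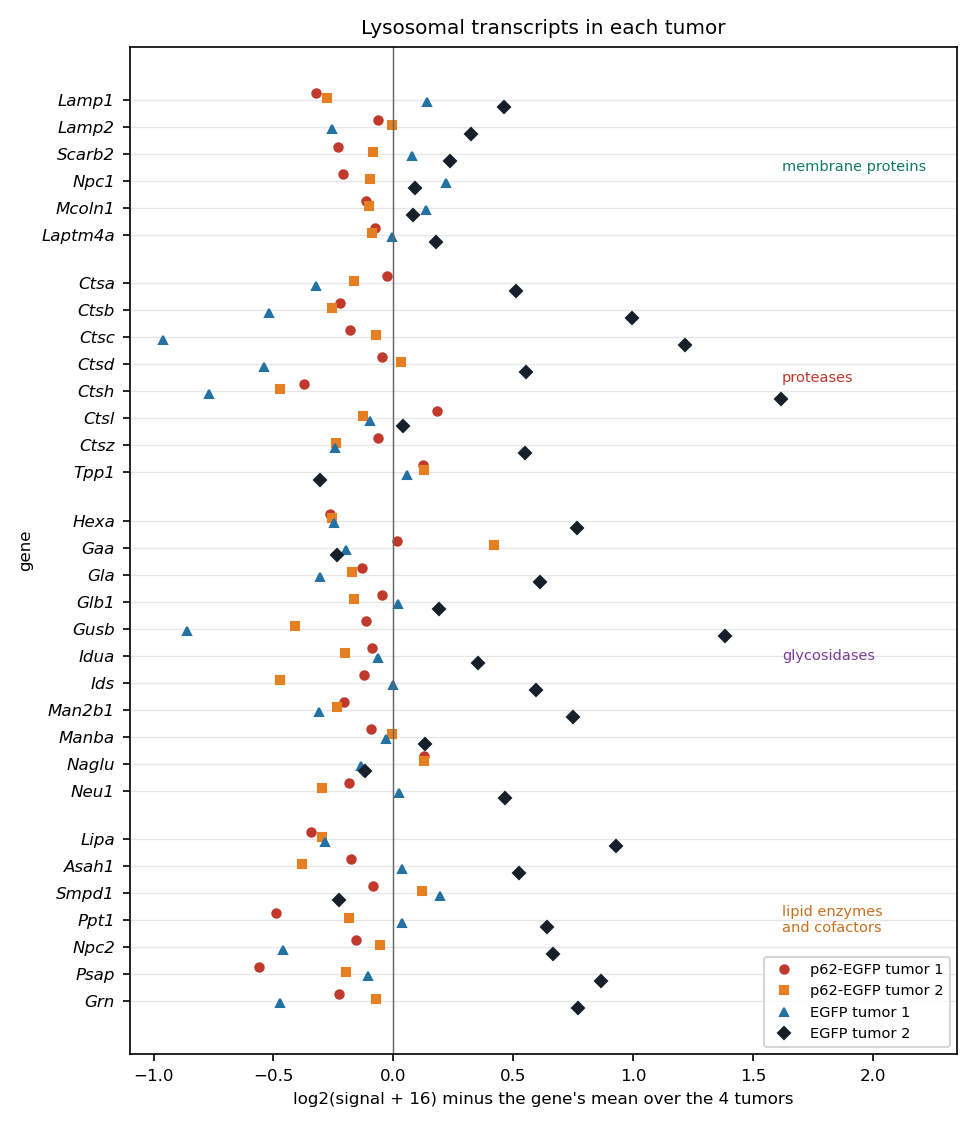
Level of each of the 32 lysosomal genes in each tumor, as log2(signal + 16) minus the mean of that gene over the 4 tumors, 1 symbol per tumor. The black diamonds of EGFP tumor 2 lie farthest to the right for 25 genes, while Lamp1, Scarb2, Npc1, Mcoln1 and Laptm4a have both EGFP tumors to the right of both p62-EGFP tumors.

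By their brightest probe sets, the membrane proteins of the lysosome were the role group in which both EGFP tumors stood together. Of the 6 measured, 5 had both p62-EGFP values under both EGFP values, a position held by 22.1% of all tested genes. Lamp1, an abundant glycoprotein that lines the inner face of the membrane, read 829 and 858 in p62-EGFP tumors, against 1148 and 1440 in EGFP tumors. Its mean was 843.5 ± 20.1 against 1294 ± 207 (SD, n = 2 each), a log2 difference of -0.60 (SE 0.15, limma adjusted p = 0.221). It was lower against each EGFP tumor taken alone, by -0.44 against EGFP tumor 1 and -0.76 against EGFP tumor 2 on the log2 scale. With EGFP tumor 2 as the sole EGFP sample the difference passed (limma adjusted p = 0.00274), a fit that lends this lone tumor the spread of the p62-EGFP pair; with EGFP tumor 1 alone it did not (limma adjusted p = 0.0625).

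Npc1, the transporter that moves cholesterol out of the lysosome, read 65.4 and 72.1 in p62-EGFP tumors and 93.8 and 84.4 in EGFP tumors. Here EGFP tumor 1 was the higher of the EGFP pair, unlike the macrophage markers. The log2 difference was -0.31 (SE 0.17, limma adjusted p = 0.456). Mcoln1, a cation channel that releases calcium from lysosomes, read 140 and 141 against 170 and 162, also with EGFP tumor 1 on top. Scarb2, which carries glucocerebrosidase to the lysosome, read 264 and 294 against 331 and 371 (log2 difference -0.31, SE 0.16, limma adjusted p = 0.418). Its dimmer probe set read 143.9 and 128.7 against 161.2 and 279.5, with EGFP tumor 2 well above EGFP tumor 1 (log2 difference -0.59). Laptm4a, a membrane-spanning protein of late endosomes and lysosomes, read 1215 and 1205 against 1277 and 1453. Within each of these 4 genes the groups did not overlap. By their brightest probe sets the gaps were small, with log2 differences between -0.31 and -0.17. The summed endothelial and mast cell markers had the same order of groups, and their part in the membrane protein values was not tested.

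Lamp2, the close relative of Lamp1 and a receptor of chaperone-mediated autophagy, behaved differently from it. It read 1043 and 1084 in p62-EGFP tumors, between the 911 and 1367 of the EGFP tumors, for a log2 difference of -0.07 (SE 0.21, limma adjusted p = 0.890). Its 4 probe sets disagreed. The probe set with the third-highest mean read 464 and 464 against 333 and 566, and that with the lowest read 441 and 388 against 262 and 341, higher in both p62-EGFP tumors (log2 difference 0.45, limma adjusted p = 0.355). Averaging its 4 probe sets turned the log2 difference to 0.12.

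The proteases followed EGFP tumor 2 instead. For none of the 8 did the p62-EGFP pair lie wholly under the EGFP pair, against 22.1% of all tested genes. EGFP tumor 2 was the highest and EGFP tumor 1 the lowest for 6 of them, against 24.6% and 22.4% of all tested genes, each counted alone. Ctsh, a cathepsin with aminopeptidase activity, read 226 and 210 in p62-EGFP tumors and 168 and 945 in EGFP tumors 1 and 2. Ctsc, the dipeptidyl peptidase that activates serine proteases of leukocyte granules, read 781 and 843 against 448 and 2079. The spread within the EGFP pair, 5.62-fold for Ctsh and 4.64-fold for Ctsc, was wider than the gap between the group means of these genes. Their log2 differences were -0.85 (SE 0.74, limma adjusted p = 0.617) and -0.25 (SE 0.68, limma adjusted p = 0.879).

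Ctsb, a cysteine protease of broad specificity, read 1103 and 1076 in p62-EGFP tumors and 895 and 2584 in EGFP tumors (log2 difference -0.48, SE 0.47, limma adjusted p = 0.657). All 4 Ctsb probe sets had EGFP tumor 2 on top. Ctsd, the main aspartic protease of the lysosome, read 637 and 674 against 449 and 975, a log2 difference of -0.02 (SE 0.36, limma adjusted p = 0.989). The carboxypeptidase Ctsa, which also protects Glb1 and Neu1 in a complex, read 339 and 306 against 272 and 499. Ctsz, a further carboxypeptidase, read 1461 and 1295 against 1290 and 2246 (log2 difference -0.30, SE 0.26, limma adjusted p = 0.613). In these 4 genes the p62-EGFP tumors were above EGFP tumor 1 and below EGFP tumor 2.

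Without EGFP tumor 2 the median over the 8 proteases was 0.25, against -0.22 with all 4 tumors and -0.65 without EGFP tumor 1. Of the 32 members, Ctsc alone then passed the threshold, higher in p62-EGFP tumors by 0.84 on the log2 scale (limma adjusted p = 0.00845, the lone EGFP tumor taking its spread from the p62-EGFP pair). Without EGFP tumor 1 it passed in the opposite direction, at -1.34 (limma adjusted p = 7.2e-05). The macrophage markers had the same arrangement of tumors, with medians of 0.67 against EGFP tumor 1 and -2.17 against EGFP tumor 2. Their part in the protease values was not tested.

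A pair of proteases did not share this arrangement. Ctsl, a cysteine endopeptidase, read 1809 and 1455 in p62-EGFP tumors and 1489 and 1640 in EGFP tumors, so that the groups overlapped (log2 difference 0.05). Tpp1, a tripeptidyl peptidase whose loss causes a childhood neuronal ceroid lipofuscinosis, read 811 and 812 against 772 and 597. It was lowest in EGFP tumor 2 and higher in both p62-EGFP tumors, by 0.25 on the log2 scale (SE 0.16, limma adjusted p = 0.511). A dimmer Tpp1 probe set read 133 and 176 against 146.5 and 125.5, and there the groups overlapped.

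**Figure D3:**
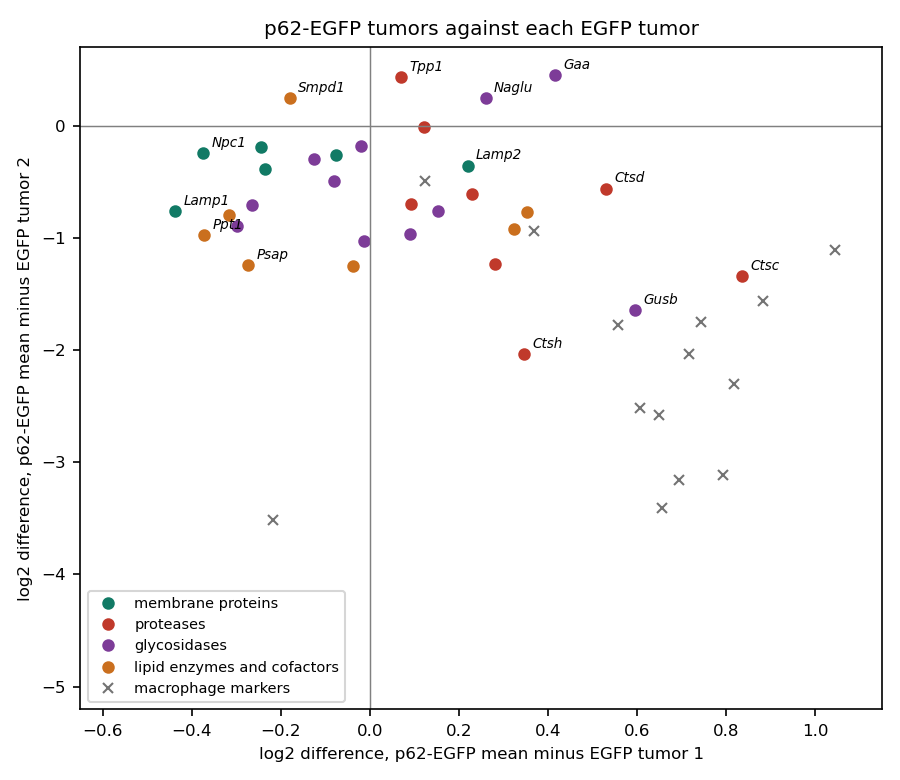
Mean of the p62-EGFP tumors minus EGFP tumor 1 (horizontal) and minus EGFP tumor 2 (vertical), on the log2(signal + 16) scale, for the 32 lysosomal genes by role and for the 14 tested macrophage markers (crosses). Ctsc, Ctsh and Gusb lie toward the macrophage markers, below EGFP tumor 2 and above EGFP tumor 1, whereas Lamp1, Npc1, Ppt1 and Psap lie below both; the 2 axes share the p62-EGFP tumors.

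The enzymes of glycan breakdown divided between these arrangements. Among the 11 enzymes, both p62-EGFP tumors were lower for 5 (Hexa, Glb1, Idua, Ids and Neu1), 2 were higher in both (Gaa and Naglu) and 4 overlapped, beside 22.1% lower and 26.4% higher of all tested genes. Their median of -0.31 was -0.01 without EGFP tumor 2 and -0.71 without EGFP tumor 1. Gusb, the beta-glucuronidase of glycosaminoglycan breakdown, had the widest EGFP pair of all members, 7.21-fold, reading 51.2 and 38.7 against 24.1 and 174 (log2 difference -0.53, SE 0.71, limma adjusted p = 0.753). Man2b1, the alpha-mannosidase, read 286 and 280 against 265 and 569 (log2 difference -0.44, limma adjusted p = 0.589). Gla, the alpha-galactosidase that is deficient in Fabry disease, read 69.1 and 66.7 against 59.4 and 127 (log2 difference -0.31, limma adjusted p = 0.685). In all 3, EGFP tumor 2 was on top and EGFP tumor 1 at the bottom.

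Hexa, the alpha subunit of beta-hexosaminidase and the gene mutated in Tay-Sachs disease, read 370 and 372 in p62-EGFP tumors and 375 and 772 in EGFP tumors. It counts as lower in both p62-EGFP tumors, although EGFP tumor 1 was above them by only 0.01 on the log2 scale (log2 difference -0.52, SE 0.34, limma adjusted p = 0.512). Ids, a sulfatase of heparan and dermatan sulfate, read 61.2 and 44.5 against 68.0 and 111 (log2 difference -0.59, SE 0.27, limma adjusted p = 0.383). Its other tested probe sets were dimmer. The brighter of these read 38.2 and 53.4 against 46.0 and 47.3, with the groups overlapping, and the dimmer read 34.6 and 35.0 against 39.1 and 37.5, lower in both p62-EGFP tumors by a log2 difference of -0.10. The size of the Ids difference therefore rests on 1 probe set. The sialidase Neu1 read 32.6 and 28.9 against 40.1 and 60.2, close to the filter. Glb1, beta-galactosidase, read 163 and 149 against 172 and 195, and Idua, alpha-L-iduronidase, 55.4 and 50.1 against 56.7 and 81.0. Manba, beta-mannosidase, read 194 and 207 against 203 and 229, with the groups overlapping.

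Gaa, the acid alpha-glucosidase that digests glycogen in lysosomes, ran the other way. It read 224 and 302 in p62-EGFP tumors, against 191 and 186 in EGFP tumors, with a mean of 263 ± 55.3 against 188 ± 3.61 (SD, n = 2 each). The log2 difference was 0.43 (SE 0.20, limma adjusted p = 0.381). Without p62-EGFP tumor 2 it was 0.23 and without p62-EGFP tumor 1 it was 0.64. A dimmer Gaa probe set read 164.6 and 223.3 against 165.5 and 126.3, and there the groups overlapped (log2 difference 0.37). Naglu, which removes N-acetylglucosamine from heparan sulfate, read 62.9 and 62.9 against 49.9 and 50.6, with each pair close together (log2 difference 0.25, SE 0.18, limma adjusted p = 0.537).

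The lipid enzymes and their cofactors had the lowest median of the role groups, -0.56 over 7 genes, with 4 lower in both p62-EGFP tumors (22.1% of all tested genes). Their median was -0.18 without EGFP tumor 2, where the membrane proteins had the lowest at -0.24, and -0.92 without EGFP tumor 1. Ppt1, which removes fatty acids from proteins, read 181 and 227 against 267 and 415 (log2 difference -0.68, SE 0.26, limma adjusted p = 0.330). Its dimmer probe set was ordered the same way. Asah1, acid ceramidase, read 311 and 268 against 363 and 515 (log2 difference -0.56, SE 0.21, limma adjusted p = 0.334). Against EGFP tumor 1 alone the log2 differences were -0.37 for Ppt1 and -0.32 for Asah1, so both stood below that tumor as well.

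Psap, the precursor of the saposins that present sphingolipids to their hydrolases, read 1161 and 1500 in p62-EGFP tumors and 1599 and 3150 in EGFP tumors (log2 difference -0.76, SE 0.33, limma adjusted p = 0.365). Lipa, the acid lipase of cholesteryl esters and triglycerides, read 212 and 220 against 222 and 536 (log2 difference -0.64, SE 0.40, limma adjusted p = 0.492). Its dimmer probe sets read 65.8 and 71.4 against 65 and 235.6, and 36 and 44.5 against 38.8 and 88.5. In each of them the groups overlapped. Against EGFP tumor 1 the log2 difference of Lipa was -0.04. For Psap it was -0.27, so a gap to EGFP tumor 1 remained there.

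Npc2, the soluble cholesterol carrier that hands its cargo to Npc1, read 1162 and 1246 against 938 and 2066 (log2 difference -0.21, SE 0.36, limma adjusted p = 0.807). Grn, progranulin, a secreted and lysosomal protein, read 937 and 1046 against 788 and 1889 (log2 difference -0.30, SE 0.40, limma adjusted p = 0.746). Both had EGFP tumor 2 on top and EGFP tumor 1 at the bottom, the order seen in the cathepsins. Smpd1, acid sphingomyelinase, read 188 and 218 against 231 and 168. It was lowest in EGFP tumor 2, and the groups overlapped (log2 difference 0.03).

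The chromosome on which a member lies moved with several of these values. On chromosome 11 the tested genes had a median log2 difference of 0.30, and 59.1% of them were higher in both p62-EGFP tumors. Gaa and Naglu lie there, and after subtraction of the chromosome medians their log2 differences were 0.12 and -0.06, a sign change for Naglu. Grn lies there too and stood at -0.61 after subtraction. On chromosome 8 the median was -0.22, and 50.8% of the tested genes were lower in both p62-EGFP tumors. Lamp1, Mcoln1, Asah1 and Man2b1 are on this chromosome, and after subtraction they stood at -0.39, -0.01, -0.35 and -0.23. For Npc1 on chromosome 18, where the median was -0.16, the value became -0.16. What moved these chromosomes was not tested.

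**Figure D4:**
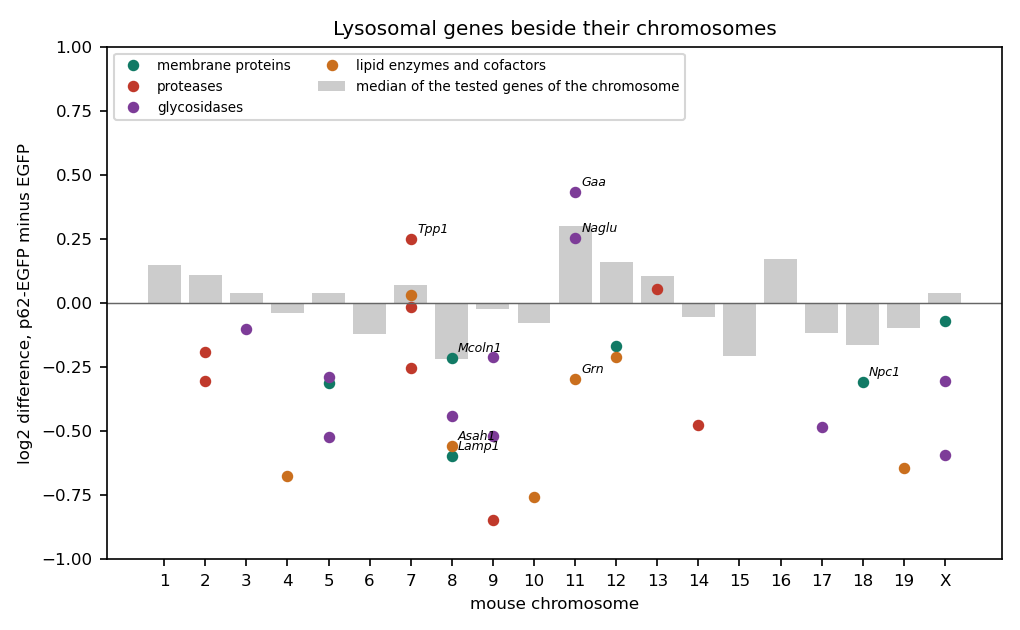
Log2 difference between p62-EGFP and EGFP tumors for the 32 lysosomal genes (points, by role) and the median of all tested genes on each mouse chromosome (bars). Gaa and Naglu sit near or above the bar of chromosome 11 at 0.30, Mcoln1 sits at the bar of chromosome 8 at -0.22, and Lamp1 and Asah1 lie below that bar.

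Beyond the members, 103 further genes of the lysosome, its proton pump, its sorting route and its regulators were listed, and 76 of them were tested. By limma 0 of the 76 had an adjusted p below 0.05, with 5 lower and 4 higher at an unadjusted p below 0.05 (6.3% and 8.5% of all tested genes). Their median log2 difference was -0.12, with 20 lower and 12 higher in both p62-EGFP tumors (22.1% and 26.4% of all tested genes). Against EGFP tumor 1 the median was 0.04 and against EGFP tumor 2 it was -0.19.

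Other lysosomal hydrolases had a median of -0.31 over 21 genes, 6 lower in both p62-EGFP tumors (22.1% of all tested genes) and 2 higher (26.4%). The sign of this median depended on the EGFP tumor, at 0.10 against EGFP tumor 1 and -0.39 against EGFP tumor 2. The sulfatase Galns read 50.3 and 58.0 against 80.7 and 78.3, and the fucosidase Fuca1 320 and 343 against 433 and 420 (limma adjusted p = 0.346 and 0.35). The cathepsin gene Ctsf read 87.3 and 71.5 against 40 and 14.4, the other way, with a log2 difference of 1.2 (SE 0.33, limma adjusted p = 0.244). The 2 EGFP tumors agreed closely for Galns and Fuca1 and differed for Ctsf. Galns lies on chromosome 8, and after subtraction of the chromosome medians its log2 difference went from -0.45 to -0.24. Fuca1 then stood at -0.32 and Ctsf at 1.27.

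The proton pump, whose subunits acidify the lysosome, was close to the genes at large, with a median of -0.08 over 15 subunits and accessory proteins. Both p62-EGFP tumors were lower for 4 of these (22.1% of all tested genes) and higher for 3 (26.4%). Atp6v0d1 read 345 and 337 against 428 and 575 (log2 difference -0.52, limma adjusted p = 0.316). Atp6v1h read 221 and 250 against 117.2 and 210.6, and Atp6v1f 1315 and 1230 against 1137 and 1092 (limma adjusted p = 0.440 and 0.457). Other membrane proteins had a median of -0.26 over 13 genes, with 3 lower in both p62-EGFP tumors (22.1% of all tested genes) and 4 higher (26.4%). Against EGFP tumor 1 alone this median was 0.19, and against EGFP tumor 2 it was -0.26. The list holds Cd68, a glycoprotein of macrophage lysosomes singled out after its values were seen, which read 122.4 and 121.9 against 68.7 and 617, the order of the macrophage markers. Lmbrd1, which takes part in the export of cobalamin, read 264 and 260 against 145 and 197, and the transporter Abca2 61.0 and 57.2 against 43.4 and 33.9 (limma adjusted p = 0.294 and 0.360). The nucleoside transporter Slc29a3 read 67.8 and 70.0 against 86.5 and 121 (limma adjusted p = 0.365).

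In the route that delivers enzymes to the lysosome, M6pr had the clearest gap. M6pr encodes the cation-dependent mannose 6-phosphate receptor, which carries new hydrolases from the Golgi. It read 785 and 768 in p62-EGFP tumors and 1103 and 1157 in EGFP tumors, with both pairs tight, for a log2 difference of -0.53 (SE 0.11, limma adjusted p = 0.205). Against EGFP tumors 1 and 2 taken alone it was -0.50 and -0.57. The adaptor Gga1, which sorts these receptors, read 71.3 and 92.8 against 114 and 146, and Rab7, the GTPase of late endosomes, 1113 and 1073 against 1282 and 1301 (limma adjusted p = 0.321 and 0.361). The list of 13 genes had a median of -0.07, with 3 lower and 1 higher in both p62-EGFP tumors (22.1% and 26.4% of all tested genes).

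Among the regulators, the transcription factors of the E-box were lower in both p62-EGFP tumors where they were tested. Tfeb read 47.4 and 48.8 against 97.3 and 79.6, a log2 difference of -0.70 (SE 0.19, limma adjusted p = 0.240), and Mitf 81.8 and 77.8 against 108 and 160, a log2 difference of -0.62 (SE 0.22, limma adjusted p = 0.316). Tfeb was highest in EGFP tumor 1. Tfec was too dim to be tested and Tfe3 was not analysed here. TFEB is controlled largely by its entry into the nucleus, which RNA does not show. Lamtor2, a subunit of the Ragulator complex that anchors mTORC1 to the lysosome, was higher, at 624 and 605 against 317 and 366 (log2 difference 0.82, SE 0.15, limma adjusted p = 0.188). The median over the 12 tested regulators was -0.06, with 3 lower and 2 higher in both p62-EGFP tumors (22.1% and 26.4% of all tested genes).

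The cathepsin inhibitors Cst3 and Cstb, which block cysteine proteases, stood at -0.17 and -0.12 on the log2 scale. Cst3 read 1446 and 1173 against 1191 and 1817, and Cstb 1269 and 1259 against 1281 and 1480 (limma adjusted p = 0.741 and 0.643).

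**Figure D5:**
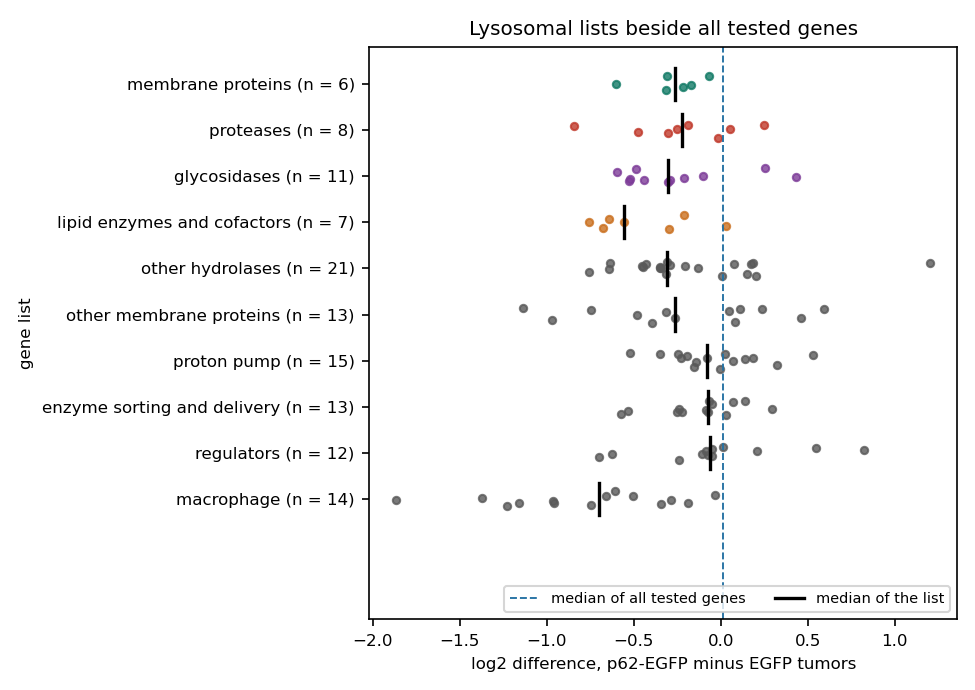
Log2 difference between p62-EGFP and EGFP tumors for each tested gene of the 4 lysosomal role groups, 5 further lysosome lists and the macrophage markers, with the list median (black bar) and the median of all tested genes (dashed line, 0.01). The lipid enzymes and cofactors have their median at -0.56, the proton pump at -0.08 and the macrophage markers at -0.70.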

How the data were processed

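The values are 1-colour signal intensities of 4 Affymetrix arrays on a linear scale, 1 array per tumor, deposited by the authors in 1 table. Per the submitters' processing notes MAS5 was used; its version and settings are unknown here. After trimming 2% from both ends, every array had the mean 150.04, and the authors' scaling was kept. Probe sets were named through the array annotation: of 22690, 64 controls were left out, 20380 had 1 gene symbol, 691 several and 1555 none. Chromosomes came from a RefSeq gene table.

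Signals were taken as log2(signal + 16), which understates the change of dim genes. Probe sets with a mean at or above the 40th percentile (log2 value 5.605) were tested, 13576 in all. The groups were compared with lmFit and eBayes (trend) in R 4.3.3 (limma 3.58.1). P-values were two-sided and adjusted by the Benjamini-Hochberg method, at a threshold of 0.05. The 4 arrays, with 2 residual degrees of freedom, limit the precision. The fit was tested on simulated data. The member counts, role medians and named genes were recomputed under 13 alternatives of scaling, pseudocount, filter, variance model, replicate block, probe set choice and tumors, and 1 added after seeing the data (chromosome medians). The further lists, marker lists, promoter split and label checks were not. Members, gene lists and naming rule were chosen with earlier results of these data known. The rule named the 2 members of smallest p per role, the best known members, those with EGFP tumors over 2-fold apart, and 3 genes per further list; every other member was also given by its values. Tables were made in Python 3.11.15 with pandas 2.3.3, and plots with matplotlib 3.10.9.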

Additional observations from a re-analysis of the deposited data

How the results depend on the processing

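No member passed the threshold under any alternative that kept all 4 tumors. In those settings and in the fits without a p62-EGFP tumor, the members below both EGFP tumors numbered 10 to 15. The counts of 10 came with 25 members tested (filter at the 60th percentile) and with 30 tested (averaged probe sets). The counts of 15 came without a p62-EGFP tumor, where lying below both is easier to meet. Leaving out each tumor in turn, the members below the remaining EGFP tumors ran from 15 to 27, those above from 3 to 15, those past the threshold from 0 to 19, and the median of the members from -0.70 (without EGFP tumor 1) to 0.0282 (without EGFP tumor 2). Over all probe sets, 8 were higher and 4 lower past the threshold with all tumors, and leaving out a tumor gave 0 to 1540 higher and 0 to 1302 lower. Without EGFP tumor 1 or 2 the spread comes from the p62-EGFP pair alone, and the lone EGFP tumor is assumed to vary alike. Probe sets higher numbered 4 with a pseudocount of 1, 3 with no filter, 4 with a filter at the 60th percentile (25 members tested) and 5 with averaged probe sets. Subtracting chromosome medians left 1 member above both EGFP tumors and turned Naglu (-0.06), Ctsl (-0.05) and Smpd1 (-0.07) negative. Among the named further genes it moved Atp6v0d1 from -0.52 to -0.31, Gga1 from -0.57 to -0.38 and Rab7 from -0.24 to -0.11. The differences of Ctsf (1.27), Atp6v1f (0.31) and Cst3 (-0.28) grew in size. With the replicate block, 14 probe sets were higher and 23 lower, and the count of members past the threshold was still 0. The labels do not say that tumors of the same number are paired, and their deviations from the group means correlated at 0.0823 over 13576 probe sets.

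Over the fits that left out a tumor, the log2 difference changed sign for the median of the proteases (-0.65 to 0.25) and for these genes: Ctsb (-1.23 to 0.28), Ctsc (-1.34 to 0.84), Ctsd (-0.56 to 0.53), Ctsh (-2.04 to 0.35), Ctsz (-0.70 to 0.0919), Gla (-0.76 to 0.15), Gusb (-1.65 to 0.60), Man2b1 (-0.97 to 0.0890), Npc2 (-0.77 to 0.35), Grn (-0.92 to 0.32), Lamp2 (-0.36 to 0.22), Ctsa (-0.61 to 0.23) and Cst3 (-0.48 to 0.13). The upper ends of these ranges came without EGFP tumor 2, and Ctsd was also positive, at 0.0232, without p62-EGFP tumor 1. Ctsl (-0.10 to 0.21) was lowest without p62-EGFP tumor 1 and highest without p62-EGFP tumor 2, and Smpd1 (-0.18 to 0.24) lowest without EGFP tumor 2 and highest without EGFP tumor 1. Ctsd was at 0.0220 with median centring as well, and Lamp2 at 0.12 with averaged probe sets. The cause was not tested. Lamp1 stayed between -0.76 and -0.39, M6pr between -0.57 and -0.41 and Tfeb between -0.86 and -0.44 in all alternatives run on them.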
